A study of Mus musculus with 6 samples.

Results

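The genes described here are the Wnt ligands, their receptors, their secreted antagonists and a small set of genes that carry or answer the signal. Members were chosen by symbol: every gene of the deposited table named Wnt, Fzd, Sfrp, Dkk or Rspo with a number, together with 20 genes listed by name (Frzb, Wif1, Lrp5, Lrp6, Ror1, Ror2, Ryk, Porcn, Wls, Axin2, Lef1, Tcf7, Tcf7l1, Tcf7l2, Ctnnb1, Nkd1, Nkd2, Notum, Znrf3 and Rnf43). This gave 62 of the 34745 genes in the table. The rule itself uses no measured value, although the set was chosen with earlier results of these data known. The symbol pattern also caught Rspo4os, an antisense RNA of the Rspo4 locus that encodes no ligand, and it was kept and counted as a member.

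RNA was sequenced from NOR-10, an established line of mouse skeletal muscle fibroblasts. The control group (Con) received PBS, and the D-gal group received D-galactose, a sugar commonly used to induce senescence in cultured cells, at 20 mg/mL for 3 days, as the study's methods give it. Each group had 3 libraries, and no sample carried a genetic change according to the labels. All libraries came from the same cell line, and the labels do not say whether they came from separate cultures, so p-values measure the spread between these libraries, which may be technical.

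Wnt proteins are secreted glycoproteins that receive a lipid from the acyltransferase Porcn and travel to the cell surface on the carrier Wls. At the receiving cell they bind a Frizzled receptor, either together with Lrp5 or Lrp6, which protects β-catenin from destruction and lets it act with TCF and LEF factors on target genes, or together with Ror and Ryk receptors, which act on cell shape and movement. R-spondins keep Frizzled receptors at the surface, while Sfrp proteins, most Dkk proteins, Frzb, Wif1 and Notum can block the signal outside the cell. The Sfrp and Dkk families, Frzb, Wif1 and Notum are grouped here as secreted antagonists, Dkk3 included. In skeletal muscle this signalling takes part in regeneration, and in aged muscle it has been linked to fibrosis.

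The control libraries were the deeper ones, with total counts of 16876087 to 20830349 against 13759108 to 15157064 under D-gal. Of the fibroblast markers, 9 of 10 exceeded 1 CPM (a count scaled to a common library total) in every library, and Lum was at 0 or 1 count. Their summed level was 7620 to 7820 CPM in control and 5000 to 5330 CPM in D-gal libraries. Of 8 muscle cell markers, 2 exceeded 1 CPM in every library, their sum was 5.35 to 6.08 CPM in control and 3.68 to 4.02 CPM in D-gal libraries, and Pax7, Myf5 and Myod1 were at 0 throughout. The summed endothelial markers were 4.52 to 5.41 CPM in control and 3.09 to 3.38 CPM under D-gal (1 of 5 above 1 CPM throughout), and Adipoq, Cidec and Lep, of 4 adipocyte markers, were at 0. The 5 leukocyte markers summed to 4.03 to 16.8 CPM in the control group, with the highest value in replicate 1, and to 4.28 to 5.41 CPM in the D-gal group. Of 4 epithelial markers only Cdh1 exceeded 1 CPM throughout, their sum was 7.0 to 8.48 CPM in control and 1.76 to 2.60 CPM in D-gal libraries, and Epcam was at 0. The fibroblast, muscle cell, endothelial and epithelial sums thus lay lower in every D-gal library, while the leukocyte sums overlapped and, within the fibroblast list, Pdgfrb lay higher in every D-gal library (459 to 480 against 400.0 to 421 CPM). The part of these markers in the results was not tested. Because the libraries are bulk RNA, fewer expressing cells and less RNA per cell cannot be told apart in any result given here.

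Promoters are shown for the Frizzled gene with the smallest p of all members (Fzd5), the ligand gene with the largest fall (Wnt16), and the ligand gene Wnt11. The Wnt11 stretch holds the only match to a TCF and LEF binding motif among the 9 of the 18 members past the test for which a promoter was matched and searched. Each line gives the 250 bases before the RefSeq transcript start (GRCm38.p6), 5′ to 3′ on the gene's strand, and capitals mark that match. Fzd5 lies on the minus strand at chr1:64737751-64738000, Wnt16 on the plus strand at chr6:22287977-22288226 and Wnt11 on the plus strand at chr7:98834862-98835111.
Fzd5: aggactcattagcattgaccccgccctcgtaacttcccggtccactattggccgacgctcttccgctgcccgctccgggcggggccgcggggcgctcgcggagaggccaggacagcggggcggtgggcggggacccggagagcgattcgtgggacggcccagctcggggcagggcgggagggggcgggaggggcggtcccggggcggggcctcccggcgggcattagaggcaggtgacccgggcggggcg
Wnt16: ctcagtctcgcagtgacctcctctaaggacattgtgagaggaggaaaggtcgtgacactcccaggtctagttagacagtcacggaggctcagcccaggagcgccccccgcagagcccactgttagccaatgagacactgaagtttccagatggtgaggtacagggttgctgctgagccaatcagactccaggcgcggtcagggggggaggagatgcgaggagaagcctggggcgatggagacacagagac
Wnt11: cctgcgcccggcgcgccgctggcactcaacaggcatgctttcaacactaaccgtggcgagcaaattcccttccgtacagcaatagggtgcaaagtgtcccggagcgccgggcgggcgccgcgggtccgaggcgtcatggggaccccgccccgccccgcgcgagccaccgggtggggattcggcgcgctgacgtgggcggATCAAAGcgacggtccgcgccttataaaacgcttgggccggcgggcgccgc
The share of G and C was 76.4% for Fzd5, 59.2% for Wnt16 and 70.8% for Wnt11. The motif was searched as CTTTGAT and its reverse complement ATCAAAG in windows from 250 bases before to 50 bases after the start. In this Wnt11 window the match began 51 bases before the start. Another Wnt11 promoter that was searched, in a window from 98838595 to 98838894, held no match. Of 52 RefSeq promoters that matched 42 members, 2 (3.85%) held the motif, 1 of Wnt11 and 1 of Wnt5b, against 1225 of all 32851 promoters (3.73%). The member promoters thus held these letters about as often as promoters in general, and a match is a description of sequence only.

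Among the 62 members, 37 had enough counts to be tested. At an adjusted p-value under 0.05, 10 of them rose under D-gal and 8 fell (edgeR quasi-likelihood, Benjamini-Hochberg over all 13407 genes tested), while 19 did not pass. The 18 members past the test make 48.6% of those tested, against 34.8% of all genes, 16.9% of all genes being higher and 17.8% lower. Adding the study's other threshold, a log2 fold change of 1 or more in either direction, left 6 differentially expressed members (16.2%), against 4.21% of all genes. These were Wnt11, Fzd5, Rspo3 and Notum on the higher side and Wnt16 and Dkk3 on the lower side. The median log2 fold change of the tested members was -0.06, and that of all genes was 0.0036. In 23 of the 37 members (62.2%) the groups did not overlap, against 49.1% of all genes. These 23 were the 18 members past the test and 5 that did not pass, Ror1 and Axin2 with all D-gal libraries above the controls and Ror2, Ryk and Porcn with all of them below. The 37 passed a filter on low counts (a cutoff of 0.624 CPM), which 34 exceeded in all 6 libraries. Of these 34, 15 passed the test and 3 were differentially expressed. The share among all genes that exceeded the cutoff in all 6 libraries was not counted, so these counts have no background of their own. Wnt11 exceeded the cutoff in 2 control and 3 D-gal libraries, Wnt16 in 3 and 2, and Dkk3 in 3 and 1. For these 3 members only the group with the higher level exceeded it in all of its libraries, so part of their difference is built into their having been tested.

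**Figure D1:**
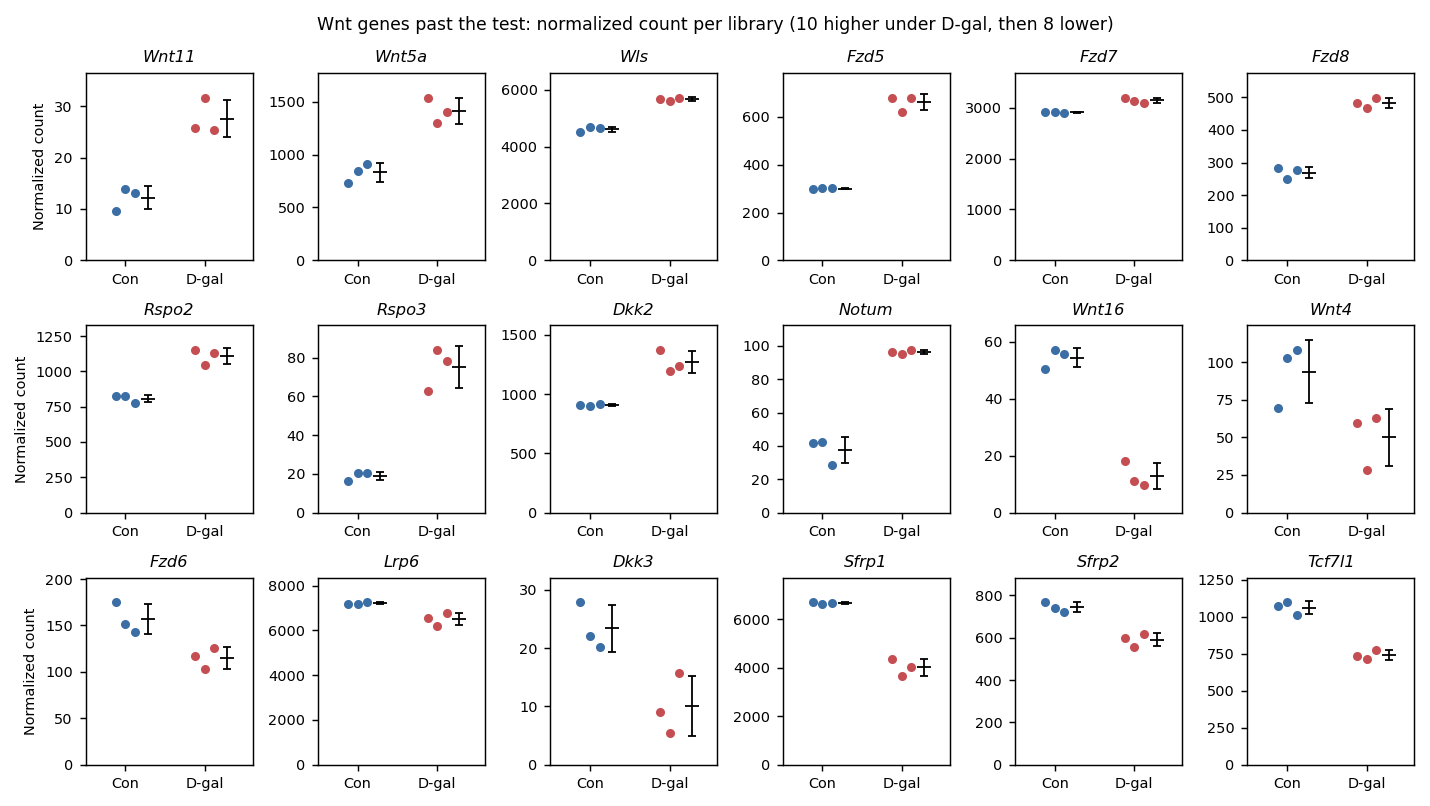
Normalized count (vertical axis, from 0) of the 18 Wnt genes past the test in each library, control libraries on the left and D-gal libraries on the right of each panel. In all 18 panels the 3 D-gal libraries lie on the same side of the 3 control libraries, with 10 genes higher and then 8 lower.

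Most Wnt ligand genes were below the level that could be tested. Of the 19 Wnt ligand genes, 5 were tested: Wnt5a and Wnt11 rose, Wnt16 and Wnt4 fell, and Wnt9a did not pass. Wnt5a, the best known ligand of the β-catenin-independent branch (chromosome 14, 28504750 to 28527447), had normalized counts of 736, 849 and 910 in control and 1539, 1296 and 1405 in D-gal libraries. Normalized counts are counts scaled to a common library size. The lowest D-gal library lay above the highest control library, and the log2 fold change was 0.77 ± 0.09 (SE, n = 3 per group, edgeR adjusted p = 0.000483), a 1.70-fold rise. Wnt11, a ligand of convergent extension in the embryo (chromosome 7, 98835112 to 98855195), was at 9.59, 13.9 and 13.1 in control and 25.8, 31.7 and 25.3 in D-gal libraries. These low levels did not overlap either, and the 2.25-fold rise gave a log2 fold change of 1.17 ± 0.27 (edgeR adjusted p = 0.0108).

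Wnt16, a ligand known from bone and joint tissue, showed the largest change in size of all tested members (chromosome 6, 22288227 to 22298522). Its normalized counts were 50.5, 57.1 and 55.5 in control and 18.0, 10.9 and 9.64 in D-gal libraries, from deposited counts of 58, 70 and 55 against 16, 10 and 8. All D-gal libraries were far below the controls, at 0.239 times their level, with a log2 fold change of -2.07 ± 0.26 (SE, n = 3 per group, edgeR adjusted p = 0.000596). Wnt4, a ligand that guides kidney and reproductive tract development (chromosome 4, 137277489 to 137299726), had 69.7, 103 and 108 normalized counts in control and 59.5, 28.4 and 62.7 in D-gal libraries. The groups did not overlap but came close, since the lowest control library was near the highest D-gal library. Its log2 fold change was -0.90 ± 0.30 (edgeR adjusted p = 0.0471). The Wnt4 call was lost without control replicate 2 (adjusted p = 0.125) or 3 (0.123) and without D-gal replicate 1 (0.064), 2 (0.092) or 3 (0.0515), and with limma on log2(FPKM + 1) (0.0525) or log2(FPKM + 0.1) (0.066). Wnt9a, with 56.6 to 74.3 normalized counts over all 6 libraries, had a log2 fold change of -0.06 ± 0.16.

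Per kb of exon, Wnt5a was the most abundant ligand in every library. Length-scaled levels are CPM per kb of annotated exon, and the summed level of the ligand genes was 9.23, 10.9 and 11.2 in control and 15.1, 13.1 and 14.0 in D-gal libraries. Wnt5a made up 60.8%, 59.3% and 61.6% of this sum in control and 77.6%, 75.5% and 76.3% in D-gal libraries. Wnt4 made up 10.7%, 13.4% and 13.6% in control and 5.60%, 3.08% and 6.35% in D-gal libraries. Wnt16 made up 7.48%, 7.16% and 6.75% in control and 1.63%, 1.14% and 0.939% in D-gal libraries. In order of control level the tested ligands were Wnt5a (6.34 ± 0.67 CPM per kb, SD, n = 3), Wnt4 (1.33 ± 0.30), Wnt9a (1.21 ± 0.12), Wnt16 (0.743 ± 0.047) and Wnt11 (0.176 ± 0.033), and Wnt4 and Wnt9a lay within each other's spread. Under D-gal, Wnt16 (0.175 ± 0.061) lay below Wnt11 (0.397 ± 0.051).

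**Figure D2:**
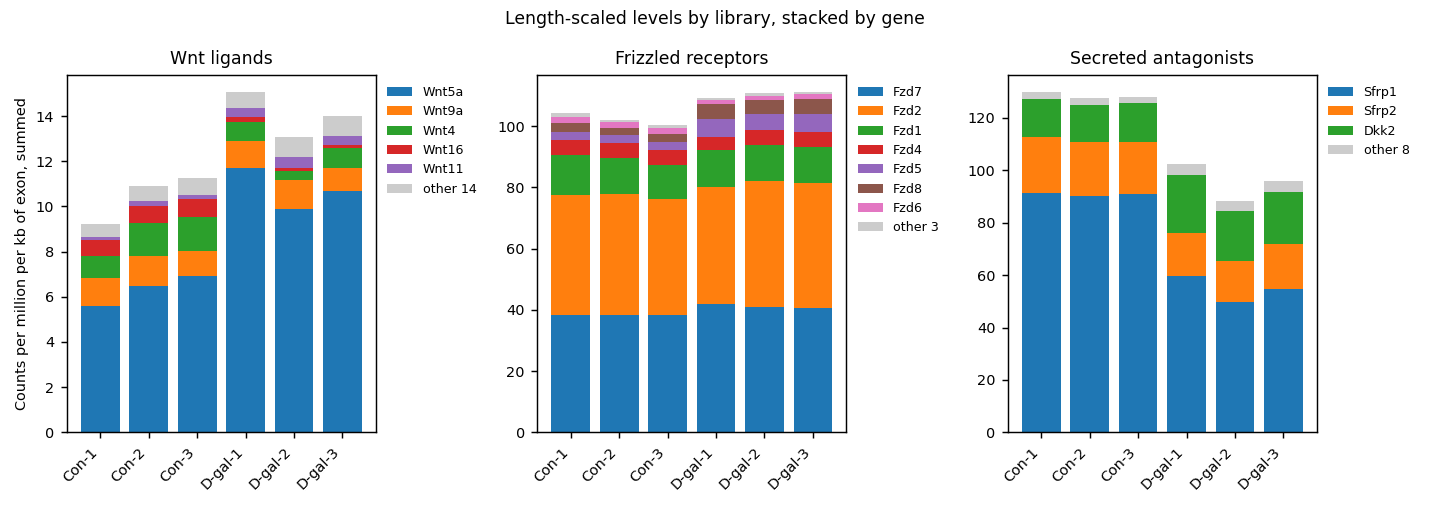
Length-scaled level (CPM per kb of exon) in each of the 6 libraries, summed over the genes of a role and stacked by gene, with an axis from 0 in each panel. Wnt5a fills 59.3% to 61.6% of the ligand bar in control and 75.5% to 77.6% in D-gal libraries, and Sfrp1 fills 70.3% to 71.1% of the antagonist bar in control and 56.5% to 58.0% in D-gal libraries.

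Wls, the carrier that all lipidated Wnt proteins need to leave the cell, rose a little with little spread (chromosome 3, 159839672 to 159938664). Its normalized counts were 4512, 4675 and 4638 in control and 5675, 5591 and 5721 in D-gal libraries. The groups were well apart, with a log2 fold change of 0.30 ± 0.03 (SE, n = 3 per group, edgeR adjusted p = 0.000221). Porcn, the enzyme that adds the lipid, had 61.9 to 82.8 normalized counts in control and 51.8 to 60.6 in D-gal libraries. Although these ranges did not overlap, Porcn did not pass the test (log2 fold change -0.38 ± 0.17, edgeR adjusted p = 0.118).

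Of the 10 Frizzled receptor genes, 8 were tested: Fzd5, Fzd8 and Fzd7 rose, Fzd6 fell, and Fzd1, Fzd2, Fzd3 and Fzd4 did not pass. Fzd5 (chromosome 1, 64730558 to 64737751), whose promoter is printed above, was at 296, 302 and 302 normalized counts in control and 680, 621 and 680 in D-gal libraries. The control libraries were nearly equal and every D-gal library was above 600, with a log2 fold change of 1.14 ± 0.07 (SE, n = 3 per group, edgeR adjusted p = 1.52e-05). Fzd8, its closest relative among the Frizzled receptors (chromosome 18, 9212856 to 9216201), had 282, 249 and 276 normalized counts in control and 481, 469 and 499 in D-gal libraries. The groups were again far apart, with a log2 fold change of 0.84 ± 0.08 (edgeR adjusted p = 0.000132). Fzd5 and Fzd8 thus rose 2.20-fold and 1.80-fold.

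The most abundant Frizzled genes, Fzd2 and Fzd7, moved little. Fzd7, a receptor for Wnt7a on muscle stem cells (chromosome 1, 59482424 to 59486955), had 2920, 2911 and 2904 normalized counts in control and 3196, 3130 and 3094 in D-gal libraries, a log2 fold change of 0.11 ± 0.03 (edgeR adjusted p = 0.0291). This was the smallest change of all members past the test, and the call was lost without control replicate 1 (adjusted p = 0.0688), 2 (0.0718) or 3 (0.0791) and without D-gal replicate 1 (0.075) or 2 (0.0576), with DESeq2 (0.12) and without a filter (0.0883). Fzd6, a receptor of planar cell polarity in skin (chromosome 15, 39006280 to 39038186), was the only Frizzled gene that fell. Its normalized counts were 175, 152 and 143 in control and 117, 103 and 125 in D-gal libraries, a log2 fold change of -0.45 ± 0.13 (edgeR adjusted p = 0.0284). The groups did not overlap, and the call was lost without control replicate 1 (adjusted p = 0.0874) or 2 (0.0572) and without D-gal replicate 1 (0.061) or 2 (0.0865), and with DESeq2 (0.0618). The log2 fold changes of the 4 Frizzled genes that did not pass were small: -0.02 for Fzd1, 0.04 for Fzd2, -0.07 for Fzd3 and -0.04 for Fzd4.

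The summed length-scaled level of the Frizzled genes was 104, 102 and 100 CPM per kb in control and 109, 111 and 111 in D-gal libraries. Fzd2 (38.9 ± 0.94 CPM per kb in control and 40.0 ± 1.6 in D-gal libraries, SD, n = 3) and Fzd7 (38.3 ± 0.10 and 41.3 ± 0.68) held most of it in both groups, and did not differ beyond their spread in the control group. Fzd5 made up 2.45%, 2.55% and 2.59% of the sum in control and 5.36%, 4.82% and 5.26% in D-gal libraries. The share of Fzd8 went from 2.70%, 2.43% and 2.74% to 4.39%, 4.21% and 4.47%. The receptors with the larger rises therefore remained minor parts of the Frizzled RNA.

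**Figure D3:**
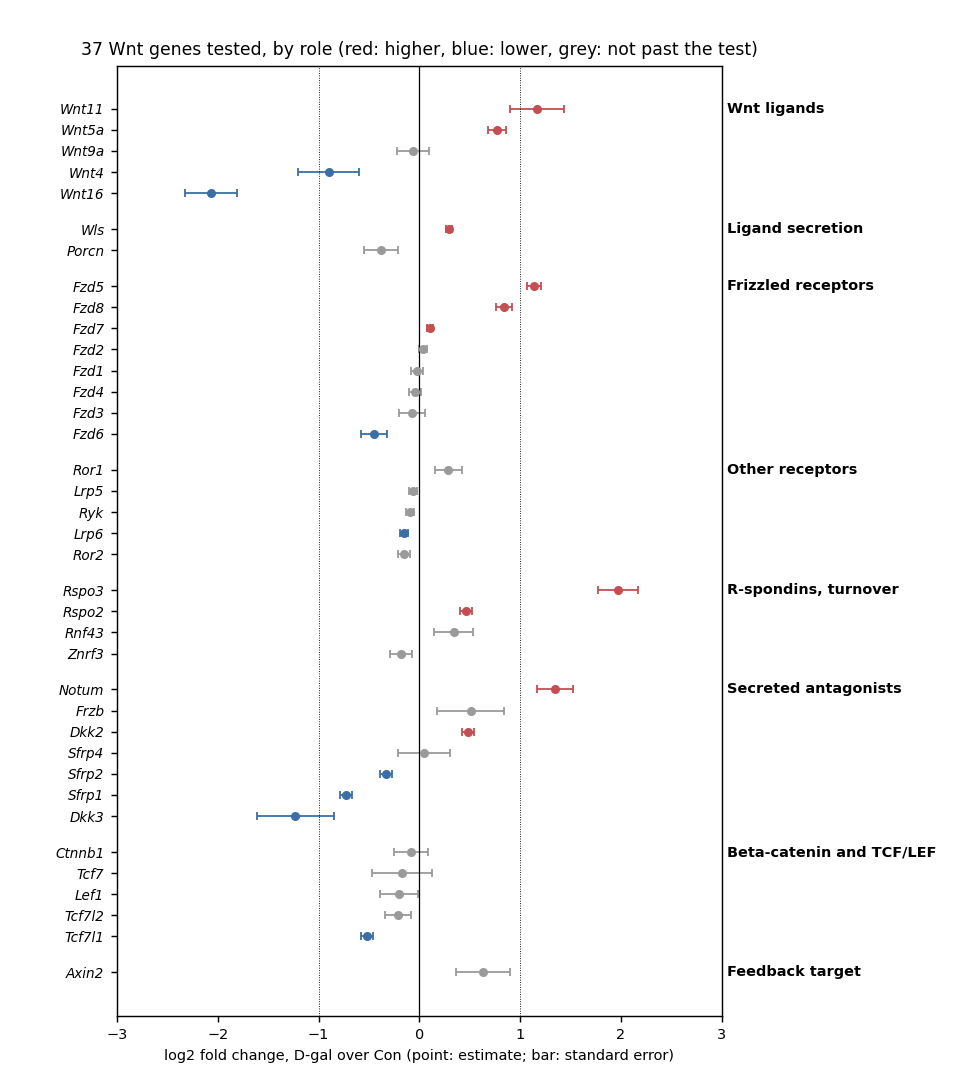
Log2 fold change (horizontal axis, D-gal over control) of the 37 Wnt genes tested, grouped by role. Points are estimates and bars standard errors, with 10 genes higher, 8 lower and 19 not past the test, from -2.07 for Wnt16 to 1.97 for Rspo3.

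Of the other receptors, Lrp5, Lrp6, Ror1, Ror2 and Ryk were all tested and only Lrp6 passed. Lrp6, the coreceptor of the β-catenin branch (chromosome 6, 134446476 to 134566965), had 7179, 7175 and 7265 normalized counts in control and 6563, 6194 and 6760 in D-gal libraries. Every D-gal library lay below the controls, but the fall was small, with a log2 fold change of -0.15 ± 0.04 (SE, n = 3 per group, edgeR adjusted p = 0.0167). The call was lost without control replicate 3 (adjusted p = 0.0512) and with limma on log2(FPKM + 1) (0.062) or log2(FPKM + 0.1) (0.0629). Its relative Lrp5 had a log2 fold change of -0.06 ± 0.04, with 1530 to 1593 normalized counts in control and 1466 to 1547 in D-gal libraries.

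Ryk, a receptor with an inactive kinase domain, was the most abundant of these receptors per kb of exon (43.0 ± 0.53 CPM per kb in control and 40.5 ± 1.3 in D-gal libraries, SD, n = 3). Its D-gal libraries all lay below the controls, yet the log2 fold change of -0.09 ± 0.04 did not pass (edgeR adjusted p = 0.0921). Ror2, a receptor that responds to Wnt5a, had 574 to 644 normalized counts in control and 534 to 565 in D-gal libraries, with a log2 fold change of -0.15 ± 0.06 (edgeR adjusted p = 0.116). For the related receptor Ror1 the normalized counts were 162 to 163 in control and 238, 173 and 183 in D-gal libraries. All D-gal libraries of Ror1 lay above the controls, D-gal replicate 1 by far the most, and the log2 fold change of 0.29 ± 0.13 did not pass (edgeR adjusted p = 0.133).

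Both R-spondin genes that could be tested rose. Rspo3 (chromosome 10, 29453109 to 29535867), an R-spondin needed for blood vessel development, had 16.6, 20.4 and 20.2 normalized counts in control and 62.9, 84.1 and 78.3 in D-gal libraries. The 3.93-fold rise, a log2 fold change of 1.97 ± 0.20 (SE, n = 3 per group, edgeR adjusted p = 0.000232), was the largest of all tested members. Rspo2 (chromosome 15, 43020811 to 43170818), which acts in limb and lung development, had 824, 823 and 776 normalized counts in control and 1153, 1044 and 1130 in D-gal libraries. The groups were well apart, with a log2 fold change of 0.46 ± 0.06 (edgeR adjusted p = 0.000602). Rspo2 remained the more abundant of the pair per kb of exon, at 12.9 ± 0.67 CPM per kb in D-gal libraries against 1.45 ± 0.21 for Rspo3 (SD, n = 3). The ubiquitin ligases Znrf3 and Rnf43, which remove Frizzled receptors from the surface and are held back by R-spondins, did not pass. Rnf43 had 139, 224 and 179 normalized counts in control and 189, 266 and 230 in D-gal libraries, which overlap (log2 fold change 0.34 ± 0.19, edgeR adjusted p = 0.212). Znrf3 had a log2 fold change of -0.18 ± 0.11, with 343 to 422 normalized counts in control and 310 to 381 in D-gal libraries.

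The secreted antagonists moved in both directions. Of 11 such genes, 7 were tested: Sfrp1, Sfrp2 and Dkk3 fell, Dkk2 and Notum rose, and Frzb and Sfrp4 did not pass. Sfrp1, a Frizzled-related protein that binds Wnt ligands (chromosome 8, 23411502 to 23449632), had 6708, 6620 and 6674 normalized counts in control and 4368, 3658 and 4023 in D-gal libraries. Controls agreed closely and every D-gal library was far lower, at 0.602 times the control level, with a log2 fold change of -0.73 ± 0.06 (SE, n = 3 per group, edgeR adjusted p = 7.52e-05). Sfrp2, a related protein (chromosome 3, 83766321 to 83774316), had 769, 741 and 721 normalized counts in control and 597, 558 and 618 in D-gal libraries. These did not overlap, and the log2 fold change was -0.33 ± 0.06 (edgeR adjusted p = 0.004). Dkk3, the divergent member of the Dickkopf family (chromosome 7, 112116019 to 112159057), had 27.9, 22.0 and 20.2 normalized counts in control and 8.98, 5.46 and 15.7 in D-gal libraries. The log2 fold change was -1.23 ± 0.38 at these low counts (edgeR adjusted p = 0.0365), and the call was lost without control replicate 1 (adjusted p = 0.108), 2 (0.0768) or 3 (0.0596) and without D-gal replicate 1 (0.104) or 2 (0.114), and with DESeq2 (0.0833).

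Dkk2, a Dickkopf protein that binds Lrp5 and Lrp6 (chromosome 3, 132085292 to 132180304), rose. Its normalized counts were 910, 896 and 918 in control and 1374, 1195 and 1241 in D-gal libraries. The groups were well apart, and the log2 fold change was 0.48 ± 0.06 (SE, n = 3 per group, edgeR adjusted p = 0.000587), a 1.40-fold rise. Notum, an esterase that removes the lipid from Wnt proteins (chromosome 11, 120653788 to 120661175), had 41.8, 42.4 and 28.3 normalized counts in control and 96.5, 95.0 and 97.6 in D-gal libraries. The D-gal libraries were nearly equal and all above the controls, with a log2 fold change of 1.35 ± 0.18 (edgeR adjusted p = 0.000872). Frzb had 16.2 to 36.7 normalized counts in control and 27.3 to 43.8 in D-gal libraries (log2 fold change 0.51 ± 0.33, edgeR adjusted p = 0.274). Sfrp4, with 35.9 to 66.2 normalized counts over all libraries, had a log2 fold change of 0.05 ± 0.26.

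The summed length-scaled level of the antagonists was 130, 128 and 128 CPM per kb in control and 103, 88.2 and 96.0 in D-gal libraries. Sfrp1 made up most of it, 70.3%, 70.6% and 71.1% in control and 58.0%, 56.5% and 57.1% in D-gal libraries. Dkk2 made up 11.2%, 11.3% and 11.5% in control and 21.5%, 21.8% and 20.8% in D-gal libraries, while the share of Sfrp2 lay between 15.6% and 17.8% in all 6. Dkk2 and Sfrp2 changed places in order, from 14.6 ± 0.18 and 20.6 ± 0.66 CPM per kb in control to 20.4 ± 1.5 and 16.4 ± 0.84 in D-gal libraries (SD, n = 3).

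Inside the cell, Tcf7l1 fell and the other members did not pass the test. Tcf7l1 (chromosome 6, 72626378 to 72789254), a TCF factor known mainly as a repressor of Wnt target genes, had 1071, 1099 and 1013 normalized counts in control and 734, 712 and 777 in D-gal libraries. The groups were far apart, with a log2 fold change of -0.52 ± 0.06 (SE, n = 3 per group, edgeR adjusted p = 0.000328). Its relative Tcf7l2 had 1098, 1089 and 842 normalized counts in control and 967, 926 and 722 in D-gal libraries, with replicate 3 the lowest in each group (log2 fold change -0.21 ± 0.13, edgeR adjusted p = 0.258). Tcf7 and Lef1, the factors that rise in many cells with active signalling, were low. Tcf7 had 24.2 to 55.5 normalized counts in control and 38.6 to 40.4 in D-gal libraries (log2 fold change -0.17 ± 0.30), and Lef1 had 38.3 to 44.9 and 31.3 to 40.4 (-0.20 ± 0.19).

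Ctnnb1, which encodes β-catenin (chromosome 9, 120929216 to 120960507), had the highest mean length-scaled level of the members. Its normalized counts were 10130, 6118 and 10370 in control and 8691, 8140 and 8297 in D-gal libraries. Control replicate 2 lay below all other libraries, and control replicates 1 and 3 lay above all of them, so the groups overlapped (log2 fold change -0.08 ± 0.17, edgeR adjusted p = 0.75). Leaving out control replicate 2 gave -0.29 (adjusted p = 0.00213), leaving out control replicate 1 gave 0.02 (0.939), and leaving out control replicate 3 gave 0.04 (0.882). The Ctnnb1 value therefore rests on which control libraries are used.

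**Figure D4:**
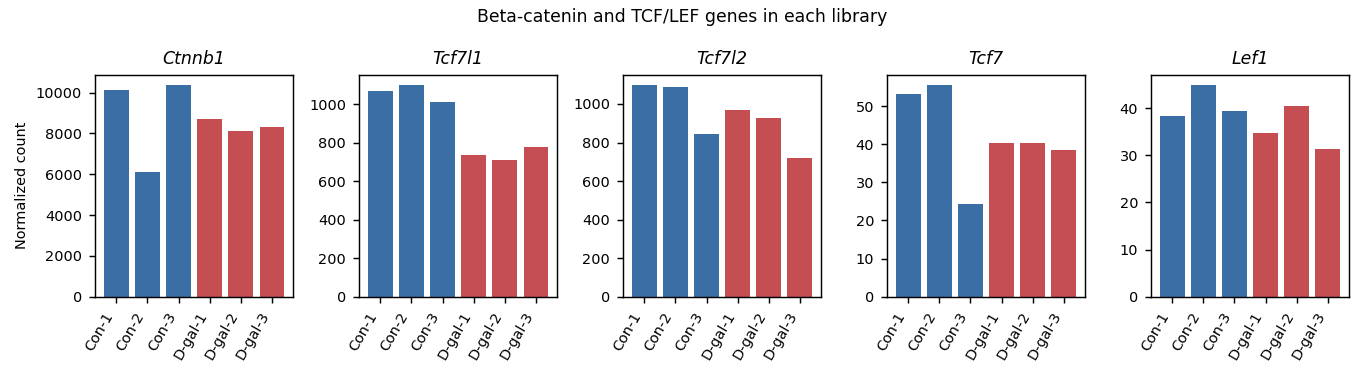
Normalized count (vertical axis, from 0) of Ctnnb1 and the TCF and LEF genes in each library, control and D-gal libraries in different colours. Ctnnb1 stands at 6118 in control replicate 2 against 10130 and 10370 in the other controls, and Tcf7l1 is lower in all 3 D-gal libraries.

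Axin2, a negative regulator of β-catenin that is widely used as a readout of the pathway, was among the least abundant tested members. Its normalized counts were 12.2, 20.4 and 17.2 in control and 25.8, 24.0 and 27.7 in D-gal libraries. All D-gal libraries lay above the controls, but the log2 fold change of 0.63 ± 0.27 did not pass (SE, n = 3 per group, edgeR adjusted p = 0.106). Nkd1 and Nkd2, feedback inhibitors that bind Dishevelled, stayed below the filter, with at most 18 and 21 counts in a library.

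The remaining 25 members were below the filter, and they include 14 of the 19 ligand genes. Wnt8a, Fzd10, Dkk1 and Dkk4 had 0 counts in every library, which allows up to 3 counts, or 0.144 to 0.218 CPM depending on the library. Dkk1, an antagonist studied in bone, was thus not detected at this depth. Another 21 had at least 1 count, with no library above 23. Among the ligands the highest count in a library was 23 for Wnt3, 13 for Wnt2 and Wnt5b, 11 for Wnt2b, 7 for Wnt10b and Wnt7a, 6 for Wnt7b, 5 for Wnt6, 3 for Wnt8b, 2 for Wnt1 and 1 for Wnt3a, Wnt9b and Wnt10a. Among receptors, R-spondins and antagonists it was 15 for Fzd9, 7 for Rspo1, 3 for Rspo4, 6 for Wif1 and 1 for Sfrp5, and the antisense RNA Rspo4os reached 13. Wnt3, a ligand of the β-catenin branch, had deposited counts of 4, 10 and 1 in control and 9, 23 and 22 in D-gal libraries. Scaled to a common library size these were 3.49, 8.16 and 1.01 against 10.1, 25.1 and 26.5, so the D-gal libraries lay above the controls, by little in D-gal replicate 1. When no filter was applied, Wnt3 passed the test with a log2 fold change of 2.19 ± 0.61 (SE, n = 3 per group, edgeR adjusted p = 0.0209). It also came over the filter when any library was left out. In these edgeR fits it passed without control replicate 2 (adjusted p = 0.0192) or D-gal replicate 1 (0.0167). It did not pass without any of the other 4 (0.0608 to 0.0825). With all libraries, 0 control and 2 D-gal libraries of Wnt3 exceeded the cutoff of 0.624 CPM. Part of its difference in the fits with a library left out is therefore built into its having been tested.

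Several ligand genes lie next to each other in the genome. Wnt9a lies 16175 bp from Wnt3a on chromosome 11, Wnt3 lies 24328 bp from Wnt9b on chromosome 11, Wnt1 lies 11706 bp from Wnt10b on chromosome 15, and Wnt10a lies 6193 bp from Wnt6 on chromosome 1. Of these 8 genes only Wnt9a was abundant enough to be tested.

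Exons of 12 members overlap another annotated gene on the opposite strand, and the sources used here do not say whether counting used the strand. For these members, reads of the 2 strands cannot be told apart if it did not. Fzd5 overlaps Gm38058 over 1233 bases (1 to 5 counts in a library), Notum overlaps Notumos over 708 bases (0 to 7 counts) and Myadml2os (0 counts), and Lef1 overlaps Gm43352 (0 to 9 counts). Wnt5a overlaps Gm2670, Fzd6 overlaps Gm26704, Sfrp2 overlaps Gm26771 and Tcf7l1 overlaps Gm15401, each with at most 4 counts, and Axin2 and Wnt7b overlap Gm11670 and AU022754, each with 0 counts. The overlapping genes of Wnt11 (Gm8398) and Rspo3 (Gm48159) have no values here. Ctnnb1 overlaps Ulk4 over 759 bases (46 to 71 counts) and, on its own strand, the microRNA gene Mir7090. Notum shares 33.0% of its 31-base words, matched on either strand, with other annotated genes. The share was 17.2% for Fzd5, 14.6% for Lef1, 13.7% for Sfrp2, 13.2% for Ctnnb1, 12.2% for Rspo3, 8.02% for Wnt11, 6.62% for Wnt4 and 4.18% for Wnt5a. Of these only Wnt4 has no opposite-strand overlap, so for the others the shares and the overlaps are not independent. Counts of these genes could depend on how shared reads were assigned.

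Beyond the members, 156 other genes of the pathway were followed in 5 lists. Of the 131 tested, 20 were higher and 29 lower under D-gal (37.4% past the test, against 34.8% of all genes), and their median log2 fold change was -0.05. Of 21 extracellular partners and coreceptors tested, 4 were higher and 5 lower (42.9% past the test, against 34.8% of all genes). The highest-ranked falls were in Adgra2 (log2 fold change -1.02 ± 0.06), which assists Wnt7a and Wnt7b signalling, Trabd2b (-0.92 ± 0.10), a membrane protease that cleaves Wnt proteins, and the R-spondin receptor Lgr4 (-0.80 ± 0.10). Lgr4 had 1007, 1037 and 1084 normalized counts in control and 697, 552 and 545 in D-gal libraries. The rises with the smallest p were in the proteoglycan Gpc4 (0.21 ± 0.03), the Fzd4 partner Tspan12 (0.45 ± 0.11) and Lgr6 (0.76 ± 0.20), another R-spondin receptor. Lgr6 had 97.6, 74.3 and 65.6 normalized counts in control and 147, 150 and 105 in D-gal libraries, so Lgr4 and Lgr6 moved in opposite directions. Their edgeR adjusted p-values were 0.000502 and 0.0199.

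Among 28 cytoplasmic genes tested, 4 were higher and 1 lower (17.9%, below the 34.8% of all genes). Dvl2 (log2 fold change -0.42), a Dishevelled scaffold that joins Frizzled to the cell interior, was the gene that fell, while Tnks (0.23), which marks Axin for destruction, Frat2 (0.80), which binds the kinase GSK3, and Tmem198 (0.75) were the highest-ranked rises. Among 25 nuclear genes, 2 were higher and 7 lower (36.0%, near the 34.8% of all genes). The corepressors Tle2 (-0.63) and Tle3 (-0.46) and the Mediator subunit Med12 (-0.34) fell, and Cdc73 (0.28) and the corepressor Tle4 (0.28) rose. Among 27 genes of planar polarity and β-catenin-independent signalling, 3 were higher and 4 lower (25.9%, below the 34.8% of all genes). Daam2 (0.45), a formin bound by Dishevelled, the kinase Rock1 (0.25) and Ankrd6 (0.66) rose, while the polarity genes Vangl1 (-0.69) and Scrib (-0.15) and the kinase Camk2d (-0.31) fell. All log2 fold changes in this paragraph passed an adjusted p-value of 0.05 (edgeR).

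Of 30 known Wnt target genes tested, 7 were higher and 12 lower (63.3%, against 34.8% of all genes), and their median log2 fold change was 0.00 after rounding. Many of these genes also answer to other pathways. Ptgs2 (log2 fold change 0.62 ± 0.03), the inducible cyclooxygenase, the matricellular gene Cyr61 (0.31) and the transcription factor Snai2 (0.49) rose. Fibronectin, encoded by Fn1 (-1.27 ± 0.04), Ramp3 (-1.39 ± 0.08), a partner of the calcitonin receptor family, and cyclin D1, encoded by Ccnd1 (-0.73 ± 0.05), fell. Ccnd1 had 8751, 8587 and 8703 normalized counts in control and 5575, 4791 and 5344 in D-gal libraries (edgeR adjusted p = 4.86e-05). Known targets of the pathway thus changed in both directions. Axin2, which had few counts, did not pass, although all of its D-gal libraries lay above the controls.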

How the data were processed

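RNA-seq of 6 NOR-10 libraries was analysed, 3 control and 3 D-gal, grouped by the labels' treatment. The labels name an RNA-seq library kit and the methods a small RNA kit, and the labels were followed. The authors' methods name FastQC for read quality and Trimmomatic for trimming, and the submitters' processing notes name HISAT2 2.0.4. The counting tool, strand setting, annotation and build are not given in the sources used here. The deposited table holds a count of reads per gene and library, which the authors left without normalization. Its FPKM values, which the authors scaled by gene length and library total, were used only in an alternative.

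Counts were analysed with edgeR (version 4.0.16, R 4.3.3): TMM normalization (factors 0.9855 to 1.015), filterByExpr, and the quasi-likelihood test without covariates over 13407 genes, adjusted after Benjamini and Hochberg. The biological coefficient of variation was 9.47%. Thresholds were an adjusted p-value under 0.05 and, for differential expression, a log2 fold change of 1 or more in either direction. A standard error is the fitted log2 fold change over the root of its F statistic. Normalized counts were scaled to the mean TMM-adjusted library size. Length-scaled levels use the distinct exons of GENCODE M21 (GRCm38), which holds all 62 identifiers, 48 with the same start and end as in the table, and coordinates are those of the table. Intervals for counts of 0 cover counting error only. The smallest library had 13759108 counts, which sets the precision for low genes. Replicates differed by more than sampling noise (chi-square over its degrees of freedom, 5.998 to 9.417).

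The members and lists were chosen with earlier results of these data known. Values per library are given for members past the test, fold change and range for other tested members, the highest count for members below the filter, and in each list the 3 genes with the smallest p in each direction. Lgr4, Lgr6 and Ccnd1 are given per library, a choice made after their values were seen, and so are the values of Wnt3. Alternatives were DESeq2 (1.42.0), RLE factors, no filter, a block for the replicate number, a minimum of 10 counts per library, each library left out, thinning to the smallest library (seed 7), and limma (3.58.1) on log2(FPKM + 1) and log2(FPKM + 0.1). The functions were tested on simulated data. Promoters are from RefSeq, and no protein sequence was used here.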

Additional observations from a re-analysis of the deposited data

How the results depend on the processing

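The 18 Wnt genes past the test kept their direction under all 14 alternatives that gave a value. Of these, 13 stayed past the threshold in every alternative that tested them, which for Wnt16 was 13 of the 14. The other 5 did not under some alternative: Wnt4, Fzd6, Fzd7, Lrp6 and Dkk3. Of the 19 others, 3 passed under some alternative, Ctnnb1 without control replicate 2 and Rnf43 and Tcf7l2 with the replicate block. The counts of higher and lower Wnt genes were 9 and 6 with DESeq2, which lost Fzd6, Fzd7 and Dkk3, and 10 and 6 when at least 10 counts were required in every library, where Wnt16 and Dkk3 were not tested. Without a filter 7 Wnt genes were differentially expressed, with Wnt3 added, and Fzd7 was not past the threshold. Leaving out each library gave 9 to 10 higher and 5 to 7 lower Wnt genes. Wnt3, with no control library over the cutoff of 0.624 CPM, was among the higher ones without control replicate 2 or D-gal replicate 1. The count of 5 lower genes came without control replicate 3, D-gal replicate 1 or D-gal replicate 2. With limma on log2(FPKM + 1), 0 Wnt genes and 120 of all genes were differentially expressed, against 6 and 564. There 10 Wnt genes were higher and 6 lower by the adjusted p-value alone (Wnt4 and Lrp6 did not pass), the fold changes of low genes being understated by the pseudocount. With log2(FPKM + 0.1), 4 were differentially expressed.

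Same-numbered libraries of the groups did not deviate together over all genes tested (correlations -0.011, -0.003 and 0.028). No pairing by number was seen in this way, which does not exclude that the samples were paired. With the replicate block 10 Wnt genes were higher (9 of them shared with the fit without it), 6 lower (5 shared) and 5 differentially expressed. It left out Dkk3 (adjusted p = 0.0643), Fzd6 (0.051), Fzd7 (0.0672) and Wnt4 (0.0705), and added Rnf43 (0.0439) and Tcf7l2 (0.0251).

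Of the 19 members not past the test, 7 changed direction. Fzd1 had a log2 fold change of 0.01 with limma on either FPKM scale. Leaving out each library gave log2 fold changes from -0.29 to 0.04 for Ctnnb1, -0.06 to 0.04 for Fzd1, -0.16 to 0.03 for Fzd3, -0.07 to 0.01 for Fzd4, -0.17 to 0.22 for Sfrp4, -0.45 to 0.02 for Tcf7 and -0.14 to 0.03 for Wnt9a. The causes were not tested. Depth limits precision most for members with few counts, among them Wnt11, Wnt16, Dkk3, Axin2, Rspo3, Frzb and those below the filter. Frzb, Tcf7 and Wnt4 had standard errors of 0.33, 0.30 and 0.30, against 0.26 for Wnt16 and 0.27 for Wnt11 and Axin2.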
